A study of Arabidopsis thaliana with 3 samples.

Results

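In DAP-seq of SPL10 on Arabidopsis thaliana DNA, 374 of the 16697 nuclear binding summits found in both precipitated samples (2.24%) lay in 119 runs of close summits. A run was a row of at least 3 shared summits in which each neighbour stood at most 1000 bp from the next. The members were chosen by the deposited positions alone: a peak of replicate 1 was shared when it and a peak of replicate 2 covered at least 50% of each other, and its place was the mean of both summits. Spacing and number of the runs are therefore descriptions of that choice, while fold enrichment, beyond the peak calling itself, and gene content were not used by it. The same number of summits placed uniformly on each chromosome gives 248 such runs, and 134 when neighbours are kept at least a median peak width apart.

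DAP-seq (DNA affinity purification sequencing) finds the DNA that a tagged transcription factor binds outside the cell. The material was leaf of the Col-0 ecotype, with 2 precipitated samples (IP1 and IP2) and 1 input, and no other genotype, age or treatment is named. The labels' protocols describe formaldehyde fixation followed by sonication of the chromatin, which differs from DAP-seq on purified DNA as usually done. The series title names the transcription of REVOLUTA as the subject of the study. Nothing in the labels says that the precipitated samples came from separate plants, so they were counted as 1 sample and both values are given, with no SD.

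SPL10 belongs to the SQUAMOSA PROMOTER BINDING PROTEIN-LIKE (SPL) family, whose members bind DNA through the SBP domain and recognise a GTAC core. Most SPL mRNAs, SPL10 among them, are cleaved under the microRNA miR156, whose fall with age lets SPL proteins accumulate and moves the plant from juvenile to adult leaves and on to flowering. Transcription factor sites can lie side by side in 1 regulatory region, and in DAP-seq each site well apart from the next appears as a peak of its own.

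The deposited fold enrichment at a summit is the pileup of DNA fragments over the peak caller's background. The lists held 21500 and 21363 nuclear peaks, each with 1 summit. The whole number of tags under a summit, recovered from the fold and the −log10 p, had a median of 62 in replicate 1 and 56 in replicate 2 at run summits, against 57 and 53 at the other 16323 shared summits. Exact Poisson 95% intervals on those tags are given in parentheses after a fold and cover counting error only. They are left out above 198 tags, a limit set by choice from the largest tag number recovered, 396. No tag number was recovered for 6 peaks of replicate 1 and 16 of replicate 2, the strongest run summit among them.

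Of the 119 runs, 104 held 3 summits, 13 held 4 and 2 held 5. A further 1159 pairs of shared summits stood within 1000 bp of each other with no further neighbour. Chromosome 5 held 30 runs, chromosome 1 held 28, chromosome 2 held 26, chromosome 3 held 20 and chromosome 4 held 15. Per length, chromosome 2 had the most, with 1.32 runs per Mb, and chromosome 4 the fewest, with 0.807 per Mb. Uniform placement gives 65.1 runs on chromosome 1, 42.9 on chromosome 2, 47.9 on chromosome 3, 39.1 on chromosome 4 and 53.2 on chromosome 5, so that all 5 chromosomes held fewer runs than that. With neighbours kept at least the median peak width of 325.5 bp apart it gives 23.3 runs on chromosome 2 and 28.7 on chromosome 5, which held slightly more than that (ratios of 1.12 and 1.04), while the ratios on the other chromosomes were 0.793, 0.771 and 0.708.

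The shortfall lay in distances below 500 bp. Uniform placement gives 1130 neighbouring pairs at most 500 bp apart and the lists held 78, which is 0.0690 of that number. No pair stood within 300 bp, where 687 are given, and the closest pair was 369 bp apart. Between 500 and 1000 bp the order turned, with 1336 pairs against 1053 (1.27 times), and the same ratio of 1.27 held between 1000 and 2000 bp, with 2403 pairs against 1898. From 2000 to 3000 bp the lists held 1818 pairs against 1649 (1.10 times). The number of neighbouring pairs is fixed by the number of summits, so pairs missing below 500 bp must add to longer distances. These uniform values had no minimum distance, so the excess beyond 500 bp cannot be read as clustering. Shared peaks had a median width of 325.5 bp and the lists gave 1 summit to each peak. Pairs at 400 to 500 bp, beyond that width, were also few, with 73 against 220. Whether close sites shared 1 peak was not tested.

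When the closed form was given a minimum distance, the count of 119 no longer fell so far below it. With neighbours held at least the median peak width apart it gives 134 runs, a ratio of 0.885. With minimum distances of 400 and 500 bp, both chosen after the data were seen, the ratios were 1.07 and 1.46. Whether the runs are fewer or more than uniform placement gives therefore turned on the smallest distance at which summits can be told apart, which the lists do not state.

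**Figure D1:**
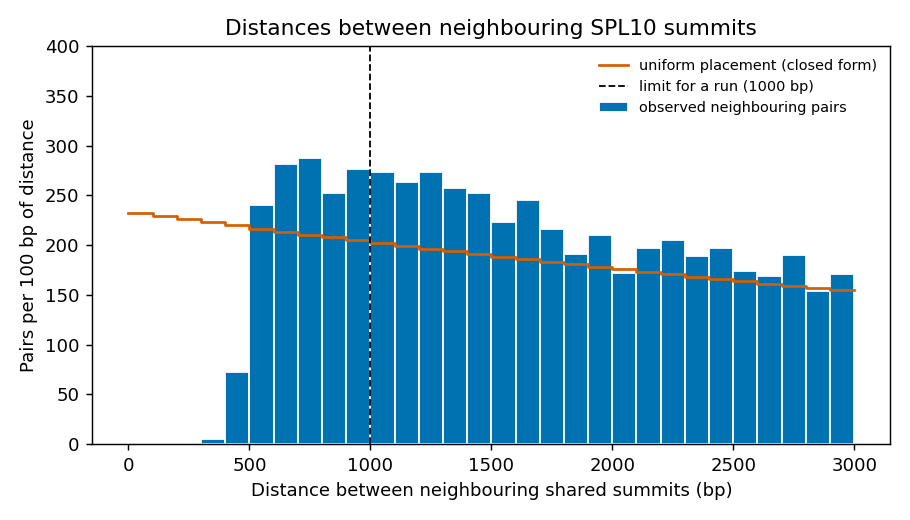
Number of neighbouring pairs of shared SPL10 summits per 100 bp of distance (bars), with the closed-form number for uniform placement on each chromosome (line) and the 1000 bp limit for a run (dashed). No pair stood within 300 bp, 78 stood within 500 bp against 1130 for uniform placement, and 1336 stood between 500 and 1000 bp against 1053. The line has no minimum distance, and pairs missing below 500 bp add to the bars beyond it.

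Inside the runs, the 255 distances between neighbours had a median of 722.5 bp, an interquartile range of 622.5 to 853 bp and a full range of 391.5 to 1000 bp. The median was 725 bp from the summits of replicate 1 and 722 bp from those of replicate 2. A run spanned 1028 to 2776 bp, with a median of 1507 bp. The runs of 4 had a median distance of 781.5 bp over 39 pairs, and the runs of 5 had 580.25 bp over 8 pairs. Peaks in runs were about as wide as the rest (median 333.75 against 325.5 bp), and the summits of both replicates lay a median of 13 bp apart in both sets.

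The limit of 1000 bp cut through a smooth range of distances. In 19 runs the largest distance was over 950 bp, and in the run held by AT1G29080 on chromosome 1 it was exactly 1000 bp, at mean folds of 2.39 to 11.7. Just outside stood 3 summits on chromosome 5 with a largest distance of 1003 bp, at mean folds of 2.24 to 2.53, and 3 on chromosome 1 with 1005 bp, at 2.28 to 11.8. A limit of 1050 bp gave 149 runs in place of 119, of which 30 held none of the earlier ones.

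Summits in runs had slightly higher folds than those elsewhere. Their median fold was 4.09 in replicate 1 and 3.93 in replicate 2, against 3.77 and 3.79 for the other shared summits. The mean of both replicates ranged from 1.57 to 27.4 in runs, and 42 of the 374 summits (11.2%) reached 10-fold, against 9.70% of the others. The median fold differed by 0.322 in replicate 1 and by 0.149 in replicate 2. That difference went with place: in the gene-poorest 298 of 1193 bins of 100 kb, 133 run summits in 42 runs had a median of 4.24 against 3.71 for 3599 others, and outside those bins 241 run summits in 77 runs had 3.75 against 3.78 for 12724 others. Outside the gene-poorest bins the difference in the mean of both replicates was thus -0.0285, but the replicates differed in sign there, with 3.84 against 3.78 in replicate 1 and 3.71 against 3.79 in replicate 2.

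**Figure D2:**
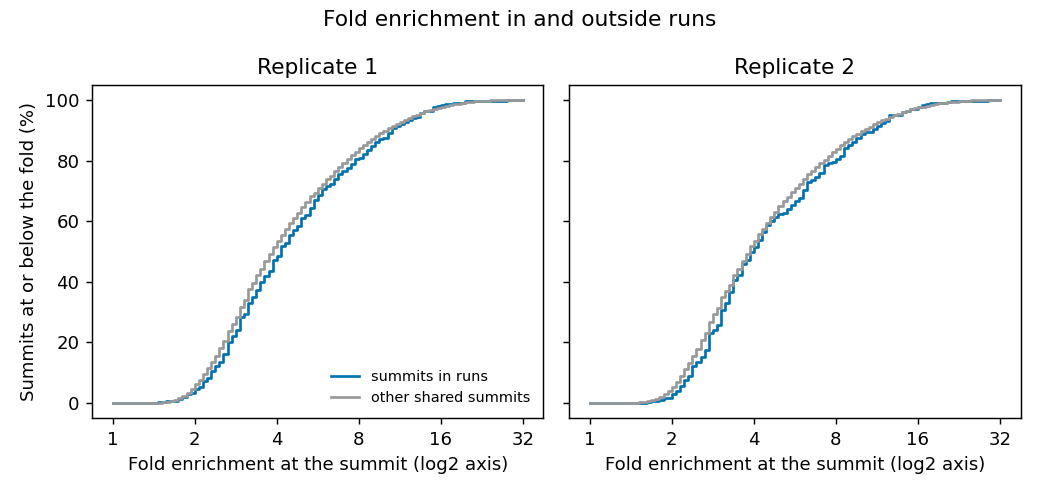
Cumulative share of summits (%) at or below a given fold enrichment (log2 axis), for the 374 summits in runs and the 16323 other shared summits, with each replicate in a panel of its own. The curves run close together, with medians of 4.09 against 3.77 in replicate 1 and 3.93 against 3.79 in replicate 2.

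A run was usually made of summits of unequal strength. The highest mean fold in a run was a median of 2.51 times the lowest (range 1.10 to 11.1), and this ratio was 2.58 from replicate 1 alone and 2.60 from replicate 2 alone. It was over 2 in 77 runs and over 5 in 10 runs. The strongest summit was the same in both replicates in 100 of 119 runs, the weakest in 100, and the whole order in 80. Intervals could be given for strongest and weakest summits in 101 runs, and in 70 of these they did not overlap in either replicate. The strongest and weakest were picked by these same folds, which favours such a gap. Unrelated shared summits were not compared in this way. The mean fold of all shared summits had an interquartile range of 2.72 to 6.23.

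Few runs held more than 1 strong summit. In 83 runs no summit reached 10-fold, in 31 runs 1 did, in 4 runs 2 did and in 1 run 3 did. Such summits were few everywhere, at 11.2% of run summits and 9.74% of all shared summits. These counts were not compared with those of unrelated summits and show no trait of runs. In the 104 runs of 3, the strongest summit was the middle one in 29 and the weakest was the middle one in 38. Across neighbouring pairs within runs, the log2 folds had a Pearson's r of 0.044 and a Spearman's rho of 0.032 (n = 255 pairs, which share summits and both libraries). Pairs between 1000 and 5000 bp apart had an r of 0.048 (n = 7160). The fold of a summit thus said little about the fold of its neighbour at either distance.

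Single replicate lists, each with more summits than the shared set, gave more runs. Replicate 1 alone held 247 runs and replicate 2 alone held 272. Of the 119 shared runs, 114 stood whole in the runs of replicate 1 and 118 in those of replicate 2. Within the 119 runs there was 1 peak seen in replicate 1 alone and none seen in replicate 2 alone.

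Runs were less often inside coding genes than other shared summits and more often inside pseudogenes or far from genes. Genes were taken from a RefSeq table, in which many pseudogenes are remnants of transposable elements. Of the run summits, 115 of 374 (30.7%) lay inside a protein-coding gene, against 51.4% of the others, and 73 (19.5%) lay inside a pseudogene, against 7.96%. Of the summits between genes, those at most 1000 bp from a coding gene made up 21.1% (22.1% of the others), those at 1000 to 2000 bp 12.3% (7.60%) and those at over 2000 bp 14.7% (9.58%). No test was made of these shares, since neighbouring summits of a run share their place by the rule.

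Part of this went with the gene-poor DNA. The gene-poorest bins held 35.6% of the run summits and 22.0% of the others. Outside them, 4.15% of run summits and 2.18% of the others lay inside a pseudogene, and 42.7% against 59.4% lay inside a coding gene. Within them, the pseudogene shares were 47.4% against 28.4%. The treatment of reads that match several copies of a repeat is not stated in the labels or files, and its part in these shares was not tested.

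**Figure D3:**
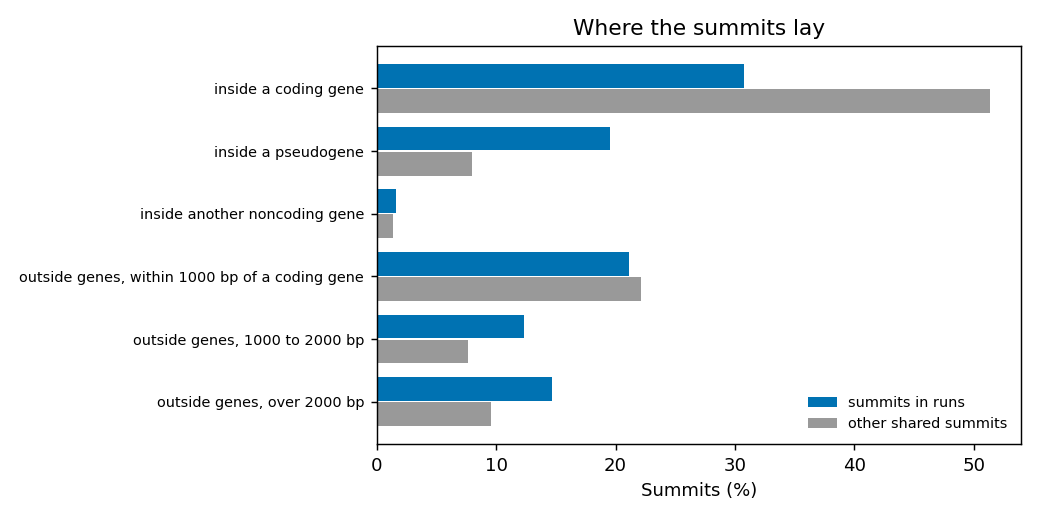
Share of summits (%) by place relative to annotated genes, for the 374 summits in runs and the 16323 other shared summits. Run summits were inside coding genes in 30.7% against 51.4%, and inside pseudogenes in 19.5% against 7.96%.

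A gene was said to hold a run when at least 3 summits of the run lay in the gene or within 2000 bp of it. By that measure 67 runs were held by 91 protein-coding genes, which is 0.332% of the 27444 in the table, and 21 of these runs were held by more than 1 coding gene. No microRNA gene held a run. Another 29 runs were held by pseudogenes and no coding gene, 1 by another noncoding gene and 22 by no gene. Median mean folds were 3.69 for the 210 summits of runs held by coding genes, 4.31 for the 94 of runs held by pseudogenes only and 4.21 for the 67 of runs held by no gene.

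In 14 runs every summit lay inside a single coding gene. The shortest of these genes measured 1430 bp and their median length was 3300 bp, but a gene must be long to contain a run, so this follows from the choice. In 8 runs every summit lay inside a single pseudogene, and in 32 runs every summit lay outside annotated genes.

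Genes of 7 lists tied to SPL proteins or to leaf identity were looked up as well. None of the 98 held a run, where the share over all coding genes was only 0.332%, so that a count of 0 says nothing particular about them. The lists were HD-ZIP III genes, the SPL family, flowering and meristem identity genes, copper deficiency genes, the genes of miR156, miR157 and miR172, AP2-like targets of miR172, and leaf polarity genes. The smallest distance from a listed gene to a run was 3527 bp, for AGL71, a MADS-box gene related to SOC1. Next came KAN2, which promotes abaxial leaf identity, at 6165 bp. Without the limit on spacing, 10 of the 98 had at least 3 shared summits in the gene or within 2000 bp. The share was 5.63% of all coding genes, 2.15% of microRNA genes and 5.59% of both together. The 10 genes were ATHB-8, SPL13A, SPL13B, SPL14, AGL42, FRO5, ZIP2, MIR408, SNZ and ZPR1, and AGL42 had 4 such summits. The lists were chosen with earlier results of these data known, so no excess can be read from this count.

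Of the runs described one by one, 22 were taken for their number of summits, their mean fold or the inequality of their summits. These values chose them and are given as descriptions. Coordinates are mean summits in TAIR10, counted from 1.

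The run of highest mean log2 fold (3.38) held no gene at all. It lay at chr3:14172487-14174346, where the nearest coding or microRNA gene, AT3G41762, was 22028 bp away. Its summits stood at 14.0-fold in replicate 1 and 14.9-fold in replicate 2, at 7.47 (6.42 to 8.65) and 8.40 (7.19 to 9.76), and at 10.2 and 9.72. No summit of this run was under 7.47-fold in either list.

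The only run with 3 summits over 10-fold was also held by no gene. It lay at chr3:22883672-22885936, and AT3G61826 was the nearest gene, 1916 bp from its middle. Its first summit reached 19.6-fold in replicate 1 and 20.8-fold in replicate 2, the third 13.2 (11.4 to 15.2) and 12.4 (10.6 to 14.4), and its last 13.2 (11.4 to 15.2) and 12.5 (10.7 to 14.6). Between them, the second summit had 2.71 (1.93 to 3.70) and 2.20 (1.49 to 3.14), so that a weak site stood 524.5 bp from a strong one.

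Further runs between genes differed in layout. Near AT1G75580, chr1:28374852-28376207, the outer summits had 17.5 and 16.2, and 14.9 and 13.4 (11.5 to 15.6). The middle summit had 4.55 (3.51 to 5.79) and 3.03 (2.18 to 4.11). Near AT1G06990, chr1:2145453-2146905, the folds fell along the run from 14.7 and 15.9 to 7.59 and 6.58 and to 3.27 and 4.46. Near AT3G10470, chr3:3257789-3259090, the middle summit led, with 10.3 (8.75 to 12.2) and 11.4 (9.67 to 13.4), against 7.59 and 8.99 before it and 5.04 and 5.37 after it. The position of the strongest summit thus differed from run to run.

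Genes of small auxin up RNA (SAUR) proteins, a family that auxin induces and that promotes cell expansion, held a pair of the runs described. The run at AT1G16510 was taken for its number of summits and its mean fold, and that at AT2G21220 for the inequality of its summits. Holders were not counted against the size of the family, so no trait of SAUR genes can be read from them. At AT1G16510, listed with the synonym SAUR41, 4 summits spanned chr1:5645364-5647478. The folds in replicates 1 and 2 were 13.7 (11.8 to 15.7) and 14.1 (12.2 to 16.3) at the first summit, then 7.87 (6.49 to 9.47) and 8.84 (7.32 to 10.6). They were 10.5 (8.88 to 12.3) and 9.86 (8.30 to 11.6) at the next, and 3.38 (2.53 to 4.43) and 3.56 (2.63 to 4.72) at the last. The first and last summits lay inside coding genes, AT1G16515 also held the run, and the first summit exceeded the last beyond counting error in both replicates.

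At AT2G21220, listed with the synonym SAUR12, the folds rose along chr2:9087357-9088649. They were 2.85 (2.05 to 3.86) and 2.43 (1.68 to 3.41) at the first summit, 8.93 (7.45 to 10.6) and 8.46 (6.98 to 10.2) at the second, and 15.8 and 16.4 at the third. The first 2 summits stood 429 bp apart, near the smallest distance in any run, and their intervals did not overlap.

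ESP, the epithiospecifier protein that steers glucosinolate breakdown toward nitriles and epithionitriles, held a run with 2 summits inside the gene (chr1:20173051-20174523). The folds were 14.7 and 15.5 at the first summit, 3.84 (2.90 to 4.99) and 3.56 (2.63 to 4.72) at the second, and 8.79 (7.32 to 10.5) and 9.29 (7.73 to 11.1) at the third. NSP5, a nitrile specifier protein with a related role, also held a run, at 3.86 and 5.86, 2.64 and 2.41, and 5.75 and 6.20. That run was not among the 22 and is given here for the role of NSP5. AT5G48175 and AT5G48190 held it too, so no shared theme can be read from the 2 runs. The strongest summit of the NSP5 run was weaker in both replicates than any but the weakest of the ESP run.

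LSH8, of the ALOG family of LIGHT SENSITIVE HYPOCOTYLS proteins, held the most even of the 10 runs of highest mean log2 fold (chr1:5784380-5785834). Its summits had 9.40 (7.98 to 11.0) and 7.19 (5.96 to 8.59), 10.2 and 9.40 (8.11 to 10.8), and 7.14 (5.87 to 8.62) and 8.03 (6.64 to 9.64). In replicate 2 these intervals overlapped, so no order of the 3 summits can be read from it.

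At AT1G65486, chr1:24350882-24352388, the folds were 9.92 and 9.52, 6.10 and 6.35, and 11.9 and 13.7. The run at chr4:9737116-9738647, held by the pseudogene AT4G17450, had 17.6 and 17.4, 8.30 and 8.54, and 4.83 and 4.84, and the nearest coding gene to its middle was HAT1, an HD-ZIP class II gene, 1491 bp away. In both runs the 2 replicates put the summits in the same order.

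Only 2 runs had 5 summits. At AT3G21930, chr3:7723514-7726289, no summit passed 6.01-fold, and the weakest had 2.33 (1.64 to 3.22) and 2.33 (1.60 to 3.29). The other lay on chromosome 5 at the pseudogenes AT5G28484 and AT5G28487. It opened a dense stretch in which 3 runs followed each other, with 12 summits over 8836 bp (chr5:10441518-10450354).

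In that stretch 5 of the 12 summits had a mean fold of at least 8 and 7 were under 4. The strong ones had 10.6 and 11.3, 10.9 and 9.60, 12.4 and 12.5, 8.58 and 9.37, and 9.004 and 8.99 in replicates 1 and 2. None lay between 4-fold and 8-fold, and each strong interval was clear of each weak one. These limits were not set in advance, so the gap is a description of this stretch only. All but 1 of the strong summits lay outside annotated genes, and the weak ones of the first 2 runs all lay inside pseudogenes.

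**Figure D4:**
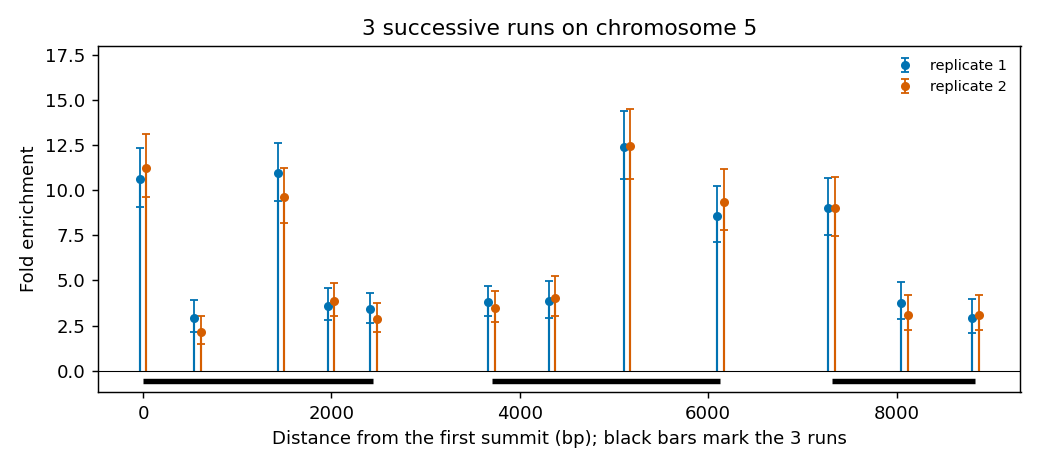
Fold enrichment at the 12 summits of 3 successive runs on chromosome 5 (points, both replicates; bars, exact Poisson 95% intervals), against distance from the first summit in bp, with black bars under the runs. The summits fall into 5 at 8-fold or more and 7 under 4-fold, limits not set in advance, and the replicates overlap at each.

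Other runs of 4 described here, which were those of higher mean fold, joined strong and weak summits too. At the pseudogene AT2G14770, chr2:6332453-6335195, the folds were 4.10 and 3.39, 2.50 and 2.96, 10.4 and 10.9, and 12.2 and 11.0, with the strong summits at 1 end. At AT1G29080, chr1:10154734-10157096, they were 11.1 and 12.3, 2.92 and 3.11, 2.28 and 2.50, and 4.76 and 4.54. At the pseudogene AT1G52020, chr1:19340033-19342809, the third summit was among the weakest in any run, with 1.46 (1.00 to 2.05) and 1.70 (1.11 to 2.51), beside a first summit of 9.64 and 8.42. The lower bound of that weak summit in replicate 1 stood at the background. Its −log10 q was only 0.222 in replicate 1 and 0.721 in replicate 2, and the run is joined through it.

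EXL5, an EXORDIUM-like gene of the cell wall, held 4 summits (chr2:7494534-7496647) at 7.31 and 7.25, 5.28 and 4.23, 1.86 and 2.13, and 4.12 and 4.01. A run of 4 was held by AT5G62200, AT5G62210 and the glycosyltransferase gene GT18 (chr5:24985666-24987702). Of its summits 3 lay inside AT5G62210, 1 inside AT5G62200 and none inside GT18, at 6.05 and 7.55, 2.53 and 2.70, 2.24 and 2.71, and 4.76 and 4.39. Both runs had their strongest summit first and a weak one in the interior. The third summit of the EXL5 run had a −log10 q of 0.998 in replicate 1 and 1.95 in replicate 2.

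The most unequal run lay at the pseudogene AT5G29408 (chr5:11171146-11172856). Its middle summit had 27.0 and 27.9, the highest of any run summit, between neighbours of 2.30 (1.73 to 3.01) and 2.64 (1.99 to 3.45) and of 2.92 (2.11 to 3.94) and 3.98 (2.99 to 5.19). The ratio of highest to lowest mean fold was 11.1. At scpl47, a serine carboxypeptidase-like gene (chr5:7689727-7691234), the first summit had 14.7 and 14.8 and the second 2.14 (1.46 to 3.04) and 2.65 (1.87 to 3.67). At AT5G51890 (chr5:21091941-21093136) the last summit had 13.0 (11.2 to 15.1) and 13.7 (11.8 to 15.9) and the first 2.50 (1.77 to 3.44) and 1.84 (1.22 to 2.68). This run was the one nearest to AGL71, and its first summit had a −log10 q of 3.70 in replicate 1 and 1.27 in replicate 2.

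**Figure D5:**
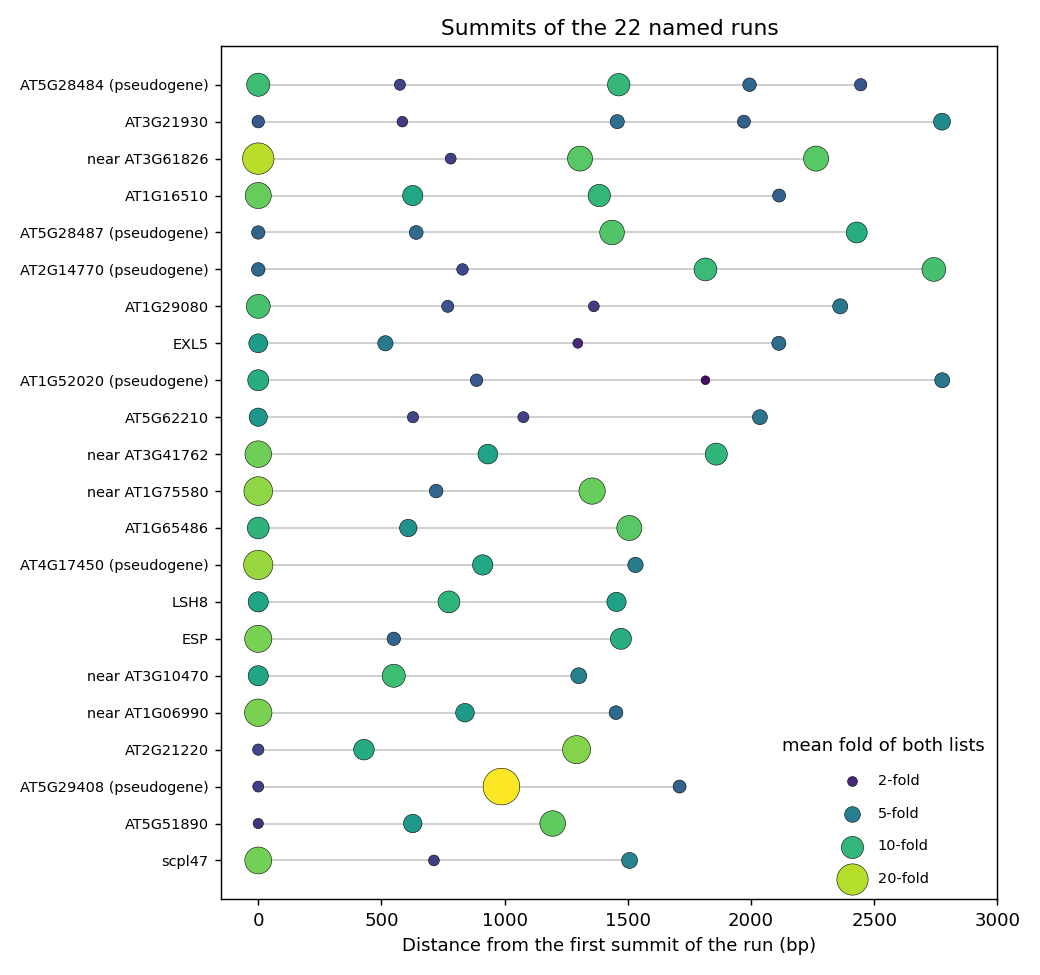
Position of each summit in the 22 runs described, as distance in bp from the first summit of the run, with the size and colour of a point giving the mean fold of both replicate lists. Runs are named by a gene that holds them or by the nearest gene, and most join 1 or 2 large points to small ones.

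A further set of holders was picked, after the values had been seen, from the 37 of the 91 coding genes that carry a gene symbol in the table. No rule for the pick was fixed beforehand, and other holders with a symbol are not described. JAG, a zinc finger protein that promotes growth of leaves and petals, held a run that lay outside the gene (chr1:25682808-25684193), at 16.4 and 17.4, 6.53 and 6.12, and 3.41 and 2.65. FAF2, a regulator of shoot meristem size, had 7.59 and 7.03, 2.14 and 2.13, and 6.74 and 6.88. SLK2, a SEUSS-like co-repressor, held a run at 2.07 and 1.75, 4.77 and 4.62, and 4.33 and 4.31, with no summit inside the gene. BAG2 also held that run, had 1 of its summits inside, and was the gene nearest to its middle. The runs of RAP2.12 and THAS1, given below, were likewise held by another coding gene, AT1G53903 and AT5G48020.

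PHYB, the red light receptor phytochrome B, had 2.85 and 2.65, 10.9 (9.39 to 12.6) and 12.3 (10.6 to 14.3), and 4.37 and 2.81, with the strongest summit outside the gene. RAP2.12, a transcription factor of the low oxygen response, had its strong summit inside the gene, at 13.2 and 10.6, after 2 weak ones of 2.85 and 2.20 and of 2.99 and 2.96. CRK19, a cysteine-rich receptor-like kinase, held 3 weak summits inside the gene, none above 4.12-fold. In PHYB and RAP2.12 alike, 1 summit of 3 passed 10-fold in both replicates.

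TPPB, a trehalose-6-phosphate phosphatase, held all 3 summits inside the gene, at 4.90 and 5.52, 12.9 (11.1 to 14.9) and 12.2 (10.4 to 14.3), and 2.78 and 3.03. THAS1, the thalianol synthase of a triterpene gene cluster, had 12.5 and 11.8, 2.78 and 3.26, and 5.43 and 5.50. LAS1, lanosterol synthase, had 9.29 and 10.8, 7.16 and 6.05, and 5.11 and 3.33. SWEET13, a sucrose transporter, had 2.42 and 2.20, 2.35 and 2.58, and 8.01 and 6.95. In each of these 4 runs the same summit was the strongest in both replicates.

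SEC61 BETA, a subunit of the channel for protein entry to the endoplasmic reticulum, held a run at 14.6 and 17.0, 4.48 and 4.24, and 2.45 and 2.96, all outside the gene. GSL10, a callose synthase gene of 15055 bp, held 3 summits inside at 2.11 and 1.65, 5.16 and 6.83, and 1.97 and 2.16. AIR9, a microtubule-associated protein gene of 12607 bp, held 7.52 and 8.31, 3.63 and 4.01, and 4.41 and 3.79 inside. SYP43, a syntaxin of the trans-Golgi network, held 3 inside that did not pass 4.90-fold. The strongest inside summit of PRMT7, a protein arginine methyltransferase, had 9.85 and 7.74.

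The run at AT2G07717 and AT2G07718 on chromosome 2 was weak and even. Its 4 summits had between 1.85-fold and 2.19-fold in both lists, and it was the only run in which the caller's background was raised over 5 times the genome level. Chromosome 2 held 47 shared peaks of the same kind, the 4 of this run included, and the places of the others were not looked at. The run itself lay in the part of the chromosome known to carry a large insertion of mitochondrial DNA in Col-0. The other 118 runs had no such summit.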

How the data were processed

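SPL10 DAP-seq peak lists of 2 precipitated samples were used; the input's alignment log was not. Per the submitters' processing notes, cutadapt and the TAIR10 build were used, and the peak names in the deposited lists name MACS; the version and threshold of the caller are not stated in the labels or files. Each deposited list gives the authors' fold enrichment (a ratio), −log10 p, −log10 q and a score of 10 times the −log10 q. From these, tag numbers were recovered for 99.9% of peaks or more (error in −log10 p under 0.01), with Python 3.11.15, pandas 2.3.3, numpy 2.4.6, scipy 1.17.1 and matplotlib 3.10.9, and the steps were checked on simulated data. Uniform placement was computed in closed form from the summits per chromosome, with chromosome ends at the last annotated gene or peak. Half-base mean summits were rounded down. Gene names and places came from RefSeq (TAIR10.1), whose coordinates are not printed; all 98 listed genes matched.

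Runs described were the 10 with most summits (ties broken by higher mean log2 fold, which left out 5 weaker runs of 4), the 10 of highest mean log2 fold, the 5 with the largest ratio of highest to lowest fold, and any held by a listed gene. Members, lists and rules were chosen with earlier results of these data known. Neither a genome nor sequences were used, so no GTAC search was run. Positions chose the members, samples form 1 group, and no test was made. Alternatives varied distance, run size, overlap, peak strength, replicate, gene flank and part of the genome.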

Additional observations from a re-analysis of the deposited data

Results flagged for a closer look

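Outside the nuclear chromosomes, 70 mitochondrial peaks were shared by both lists, and the same distance rule gave 2 runs there, with 8 summits (11.4% of the shared mitochondrial summits) at a median fold of 1.92. The mitochondrial peaks were not used in the report, and no list of a control sample was analysed here.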

How the results depend on the processing

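The number of runs (119), the share of shared summits in them (2.24%), and the 91 coding genes that held them followed the distance limit and the set of peaks. With neighbours at most 500 bp apart all of these, and the ratio to uniform placement, were 0, so no spacing or fold could be given. At 2000 bp there were 672 runs, 14.0% of summits, 573 genes and a ratio of 0.892. Runs of at least 4 numbered 15 (0.371%, 12 genes). An overlap of 80% left 60 runs (1.45%, 44 genes), a −log10 q of at least 10 left 19 (0.695%, 8 genes), and the 5000 peaks of highest fold left 5 (0.3%, 4 genes); fewer summits entered these. Without either replicate there were 247 to 272 runs, 3.62% to 4.04% of summits and 229 to 263 genes. Leaving out the gene-poorest bins gave 77 runs (1.86%), and a flank of 1000 bp gave 50 genes. The ratio of 0.480 became 0.885 with neighbours at least a median width apart, and 1.07 and 1.46 at minimum distances of 400 and 500 bp, added after the data were seen.

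The median distance of 722.5 bp became 1182 bp at the 2000 bp limit, 769 in runs of at least 4, 742 at 80% overlap, 726.5 at any overlap, 835.5 in the top 5000 peaks, 732 without the gene-poorest bins, and 713 to 718 without either replicate. The difference in median fold (0.190) reversed to -0.0878 in runs of at least 4 and to -0.0285 without the gene-poorest bins, where replicate 1 kept its sign (3.84 against 3.78), and kept its sign under 7 other settings. The share of run summits inside pseudogenes (19.5%) was 4.15% outside and 47.4% within those bins, a split added after the data were seen. The cause of these changes was not tested. No paired analysis was possible because there was 1 group. Depth limits single summits, above all those of few tags (lowest 22).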

Other observations

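Some runs recurred with nearly the same layout at another place. All 42 stretches of 6 successive shared summits with neighbours at most 1500 bp apart were compared by their 5 distances, in both directions, after the layouts had been seen. At a tolerance of 30 bp for every distance, 4 of the 861 pairs of stretches matched, all with one read against the other's direction, and they came from 2 pairs of places since stretches overlap. The first pair joined the successive runs on chromosome 1 at the pseudogene AT1G45070 with those on chromosome 2 at the pseudogene AT2G12150. Read from 4884118 upward on chromosome 2, the distances were 628.5, 501.5, 1200.5, 671.5 and 757 bp. Read from 17038993 downward on chromosome 1, they were 625, 512, 1200.5, 683.5 and 758 bp. The folds were high at both ends and low between them in both places, but the order of the inner summits differed, with mean folds of 8.82, 3.19, 2.27, 4.18, 3.83 and 9.51 on chromosome 2 and 8.91, 3.35, 3.11, 2.64, 4.24 and 8.65 on chromosome 1. A seventh summit also matched, 1358 bp before the first on chromosome 2 (8.39-fold) and 1351 bp on the other side on chromosome 1 (7.38-fold).

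The second pair of places, on chromosomes 5 and 1, held no run. The 5 distances from 14510673 on chromosome 5 were 1410.5, 905, 1020.5, 788 and 1253 bp, and those read downward from 9683503 on chromosome 1 were 1429, 926, 1006, 783.5 and 1269 bp. The mean folds were 16.3, 10.2, 11.8, 2.98, 3.21 and 4.25 on chromosome 5 and 17.8, 12.0, 13.1, 3.11, 4.01 and 5.14 on chromosome 1. Whether the DNA of such places is alike was not tested, since no genome was used here.

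Runs also stood close to one another: 9 pairs of successive runs, involving 16 runs, were within 20 kb. All of these runs lay in the gene-poorest bins. The next closest pair, on chromosome 1, stood 20383 bp apart and lay outside those bins, so that pattern depended on the limit.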
